A study of Mus musculus with 8 samples.

Results

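The bone morphogenetic protein (BMP) receptor genes Bmpr1a, Bmpr1b and Bmpr2 and the SMAD genes Smad1 to Smad7 were followed in mouse ovarian follicles, as 10 genes of the 55157 in the deposited table. They were chosen by gene name, as the 3 BMP receptors and 7 SMAD proteins, and all 10 passed the filter of a mean of at least 1 FPKM, a unit of fragments per kilobase of exon that is scaled for library depth. The melatonin group was made of 4 libraries of type 7 to 8 follicles, a morphological stage, from Kunming mice, an outbred stock, taken on postnatal day 21 and 24 hours after pregnant mare serum gonadotropin (PMSG) and melatonin. The control group was made of 4 libraries of the same stage, stock, age and time after PMSG and saline. PMSG acts like follicle-stimulating hormone and was given to both groups, so no library shows follicles without gonadotropin. The comparison asks what melatonin given with PMSG does to follicular transcripts. The labels number the replicates without saying whether an animal or a pool stands behind each, so a p-value here reflects the spread among libraries, some of which may be technical.

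BMPs and related ligands bind a complex of type I and type II receptor kinases, in which the type II receptor activates the type I receptor. The type I receptor then phosphorylates receptor SMADs, which join SMAD4 and enter the nucleus. SMAD1 and SMAD5 serve mainly BMP receptors, SMAD2 and SMAD3 serve activin and TGF-beta receptors, and SMAD6 and SMAD7 are inhibitors that the pathway itself induces. In the follicle the oocyte ligands GDF9 and BMP15 act on granulosa cells through BMPR2, and BMPR1B is the type I receptor tied to BMP15 and to ovulation rate in sheep.

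The values implied 18553190 to 23649206 fragments per melatonin library and 17451108 to 22034314 per control library. The 9 of the 10 genes whose fragments could be recovered rested on 256 to 39115 fragments per library. Counting error per library was 0.506 to 0.583% for Bmpr2 in melatonin, where the standard deviation was 7.10% of the mean, and it exceeded the spread for Smad1 in control, at 4.23 to 4.87% beside a standard deviation of 2.95%. It was also close to the spread for Smad5 in control, at 1.88 to 2.09% beside 2.69%, and covers counting only. Granulosa markers were abundant, led by the inhibin gene Inha at a mean of 6021 FPKM, and all 12 oocyte markers reached 1 FPKM, led by Gdf9 at 102 FPKM. Summed granulosa marker levels were 6286 to 6941 FPKM in melatonin and 7315 to 9104 FPKM in control libraries, with 11 of 12 lower by log2 fold change. By its mean level Inha made up most of these sums, so they mainly follow that gene. Theca marker sums were 34.4 to 63.6 FPKM in melatonin and 60.04 to 66.2 FPKM in control libraries, with 6 of 7 tested lower. Oocyte marker sums overlapped, at 328 to 426 FPKM in melatonin and 340.5 to 531 FPKM in control libraries, with 10 of 12 lower. Smooth muscle sums were 35.6 to 57.3 FPKM in melatonin and 34.4 to 58.03 FPKM in control libraries, with 2 of 3 tested lower. Stroma markers summed to 19.3 to 38.8 FPKM in melatonin and 29.2 to 64.5 FPKM in control libraries (6 of 6 lower), and endothelial markers to 7.32 to 9.999 FPKM in melatonin and 8.87 to 13.7 FPKM in control libraries (4 of 4 tested lower). Surface epithelium markers summed to 22.8 to 31.6 FPKM in melatonin and 25.9 to 48.1 FPKM in control libraries (5 of 5 tested lower). No marker of these lists was at 0 in all 8 libraries. The part of these cell type differences in the results was not tested. In such bulk RNA, fewer cells of a type and less RNA per cell cannot be told apart.

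None of the 10 genes passed the test. With limma on log2(FPKM + 1), adjusted over 14738 genes, 0 of the 10 had an adjusted p under 0.05, against 0% of all genes, and limma-voom on recovered fragments also called 0 of 9. Their adjusted p ran from 0.148 to 0.942. By limma 2 genes (Bmpr2 and Smad5, both higher) had an unadjusted p under 0.05, as did 19.1% of all tested genes (9.4% higher and 9.74% lower), and by limma-voom 1 of 9 had, against 19.9% of all genes in that fit. Without control replicate 3, limma called 0 of the 10 and gave 3 (Bmpr2, Smad6 and Bmpr1a) an unadjusted p under 0.05, as it did 14.8% of all genes in that fit. With GC and length trends removed it called 0 and gave 1 (Bmpr1a) such a p, against 17.4% of all genes. The melatonin and control values did not overlap in 1 gene, Bmpr2, against 11.7% of all tested genes, so neither share stood far from the background. Log2 fold changes (melatonin over control) were positive in 6 and negative in 4 of the 10, with a median of 0.07, and the median over all tested genes was -0.01.

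**Figure D1:**
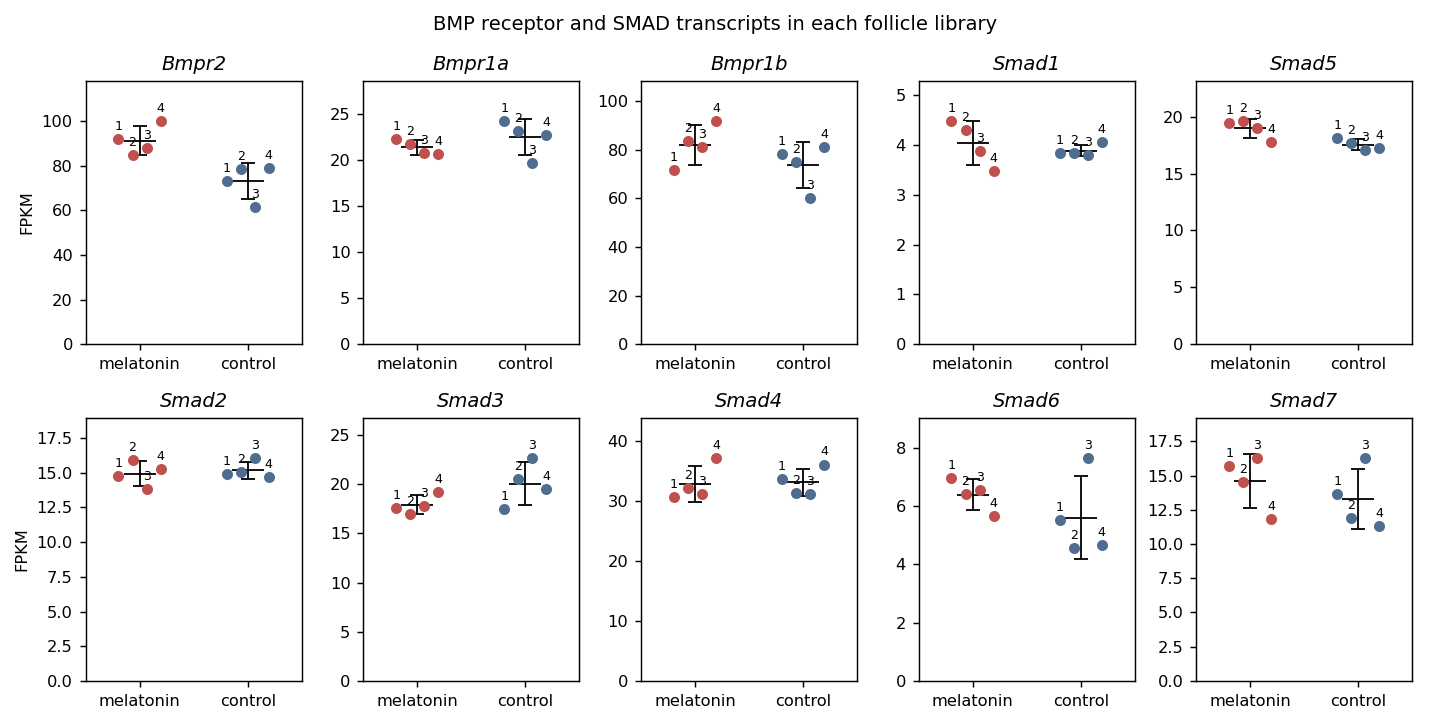
FPKM (y axis, from 0) of each gene in the 4 melatonin (left, red) and 4 control (right, blue) libraries; numbers are replicate numbers, and bars are the mean and SD. Bmpr2 is the gene whose melatonin points (85.1 to 100.1 FPKM) all sit above its control points (61.7 to 79.3 FPKM).

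Bmpr2 (chr1:59763400-59879014, plus strand, mm10) codes for the type II receptor shared by BMPs, BMP15 and GDF9, and was the most abundant of the 10 in melatonin follicles. Its level was 92.0, 85.1, 88.1 and 100.1 FPKM in melatonin replicates 1 to 4, against 73.2, 78.7, 61.7 and 79.3 FPKM in control replicates 1 to 4. Every melatonin library lay above every control library, and control replicate 3 was the lowest of the 8. The means were 91.3 ± 6.49 FPKM with melatonin and 73.2 ± 8.12 FPKM in control (SD, n = 4 each), a fold of 1.25. The log2 fold change was 0.32 ± 0.088 (SE, 95% interval 0.12 to 0.52), with an unadjusted p of 0.00629 and an adjusted p of 0.148 by limma. A two-sided exact permutation test gave p = 0.0286, the smallest that 70 assignments of the libraries allow. Bmpr2 has 17983 bases of annotated exon, more than 99.0% of tested genes have, and a GC content of 41.0%. After GC content and exon length trends were removed within each library its log2 fold change was 0.16 ± 0.080 (SE) with an adjusted p of 0.331. Without control replicate 3 it was 0.24 ± 0.067 (adjusted p = 0.257).

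Bmpr1b (chr3:141837136-142169425, minus strand) codes for a type I receptor of granulosa cells and oocytes. It was at 71.7, 83.6, 81.2 and 91.7 FPKM in melatonin replicates 1 to 4, against 78.3, 74.9, 60.3 and 81.2 FPKM in control replicates 1 to 4. The groups overlapped, since melatonin replicate 1 lay below 3 control libraries. Its log2 fold change of 0.16 ± 0.11 (SE, 95% interval -0.09 to 0.40, adjusted p = 0.448) ranged from 0.06 without control replicate 3 to 0.22 without melatonin replicate 1. With GC and length trends removed it was 0.09.

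Bmpr1a (chr14:34410734-34503341, minus strand), the more widely expressed type I receptor, was at 22.3, 21.7, 20.7 and 20.6 FPKM in melatonin replicates 1 to 4 and at 24.2, 23.2, 19.7 and 22.7 FPKM in control replicates 1 to 4. The groups overlapped through control replicate 3, which was again the lowest. Its log2 fold change was -0.07 ± 0.066 (SE, 95% interval -0.22 to 0.09, adjusted p = 0.612). The estimate ranged from -0.12 without control replicate 3 to -0.03 without control replicate 1, and was -0.14 with GC and length trends removed, where the adjusted p was 0.258. The antisense transcript Gm17110 shares 4.57% of the Bmpr1a exon bases, and reads of both cannot be told apart if strand was not used.

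Type I receptor transcripts were thus dominated by Bmpr1b, whose level was 3.22 to 4.45 times that of Bmpr1a in melatonin libraries and 3.07 to 3.58 times in control libraries. The ratio of Bmpr2 to the sum of both type I transcripts was 0.808 to 0.979 in melatonin libraries and 0.714 to 0.802 in control libraries. These ratios compare FPKM levels of genes within a library, so they do not depend on how libraries were scaled to each other. The ratio of Bmpr2 to the type I sum did not overlap between the groups, but the gap was narrow (0.808 against 0.802). The GC and length limits given for Bmpr2 apply to this ratio too. The ratio of Bmpr2 to Bmpr1b alone overlapped, at 1.02 to 1.28 in melatonin and 0.935 to 1.05 in control libraries. How often such ratios fail to overlap over all genes was not computed. The ratio of Bmpr1b to Bmpr1a overlapped, since melatonin replicate 1 lay below 3 control libraries.

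Among the receptor SMADs of the BMP side, Smad5 (chr13:56703010-56742377, plus strand) exceeded Smad1 (chr8:79338395-79399518, minus strand) in all 8 libraries, by 4.35 to 5.10 times in melatonin and 4.25 to 4.72 times in control libraries. Smad5 was at 19.5, 19.6, 19.0 and 17.8 FPKM in melatonin replicates 1 to 4, against 18.1, 17.7, 17.1 and 17.3 FPKM in control replicates 1 to 4. Only melatonin replicate 4 lay below a control library, replicate 1. The log2 fold change of Smad5 was 0.11 ± 0.046 (SE, 95% interval 0.0011 to 0.21), with an unadjusted p of 0.0482 and an adjusted p of 0.257 (limma). It was 0.06 with GC and length trends removed (adjusted p = 0.487).

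Smad1 was the least abundant of the 10 genes, at 4.48, 4.31, 3.88 and 3.49 FPKM in melatonin replicates 1 to 4 and at 3.85, 3.85, 3.80 and 4.06 FPKM in control replicates 1 to 4. The melatonin libraries spanned the control libraries on both sides. Its standard deviation was 0.447 FPKM with melatonin and 0.115 FPKM in control, and its log2 fold change was 0.04 ± 0.074 (SE, 95% interval -0.13 to 0.21, adjusted p = 0.799).

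On the activin and TGF-beta side, Smad3 (chr9:63646767-63757994, minus strand) was at 17.6, 16.9, 17.8 and 19.2 FPKM in melatonin replicates 1 to 4, against 17.5, 20.5, 22.7 and 19.5 FPKM in control replicates 1 to 4. Control replicate 1 was as low as the melatonin libraries, and control replicate 3 was the highest. The log2 fold change of -0.15 ± 0.078 (SE, 95% interval -0.33 to 0.03, adjusted p = 0.330) ranged from -0.21 without control replicate 1 (unadjusted p = 0.0153, adjusted p = 0.200, limma) to -0.09 without control replicate 3. Smad2 (chr18:76241580-76310963, plus strand), which acts beside Smad3, was at 14.8, 15.9, 13.8 and 15.3 FPKM in melatonin replicates 1 to 4. In control replicates 1 to 4 it was at 14.9, 15.0, 16.1 and 14.7 FPKM. The groups overlapped almost fully, and the log2 fold change was -0.02 ± 0.054 (SE, 95% interval -0.15 to 0.10, adjusted p = 0.851).

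The sum of Smad1 and Smad5 was 0.616 to 0.741 of the sum of Smad2 and Smad3 in melatonin libraries and 0.539 to 0.679 in control libraries, as FPKM levels. Melatonin replicate 4 gave the lowest melatonin ratio and lay within the control range, while the other 3 melatonin libraries lay above it.

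Smad4 (chr18:73639009-73703780, minus strand), the common partner of all receptor SMADs, was the most abundant SMAD transcript. It was at 30.7, 32.2, 31.2 and 37.2 FPKM in melatonin replicates 1 to 4 and at 33.6, 31.4, 31.2 and 36.1 FPKM in control replicates 1 to 4. Replicate 4 was the highest of each group, and the groups overlapped. Its log2 fold change was -0.01 ± 0.074 (SE, 95% interval -0.18 to 0.16, adjusted p = 0.942), and its sign turned after quantile normalization (0.04) and after the GC and length correction (0.02).

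The inhibitory SMAD genes differed in level. Smad7 (chr18:75367529-75395935, plus strand), which blocks both branches, was at 15.7, 14.5, 16.3 and 11.9 FPKM in melatonin replicates 1 to 4, against 13.6, 11.9, 16.3 and 11.3 FPKM in control replicates 1 to 4. Smad6 (chr9:63953076-64022059, minus strand), which acts mainly on the BMP branch, was at 6.97, 6.42, 6.54 and 5.67 FPKM in melatonin replicates 1 to 4, against 5.52, 4.58, 7.66 and 4.67 FPKM in control replicates 1 to 4. Both genes had their highest control level in replicate 3 and their lowest melatonin level in replicate 4. The log2 fold change was 0.18 ± 0.14 for Smad6 (SE, 95% interval -0.13 to 0.50, adjusted p = 0.493) and 0.13 ± 0.13 for Smad7 (SE, 95% interval -0.16 to 0.42, adjusted p = 0.601).

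Both estimates depended on single libraries. With a library left out in turn, the log2 fold change ranged from 0.11 (without control replicate 2) to 0.32 (without control replicate 3) for Smad6. For Smad7 it ranged from 0.06 (without control replicate 4) to 0.23 (without control replicate 3), and was 0.22 without melatonin replicate 4. Leaving out control replicate 3 gave 0.32 ± 0.086 for Smad6 (SE, unadjusted p = 0.00620, adjusted p = 0.251, limma) and 0.23 ± 0.11 for Smad7 (SE, adjusted p = 0.393). The 4 melatonin values of Smad6 lay above the remaining control values, which ended at 5.52 FPKM, whereas those of Smad7 still overlapped them. Control replicate 3, at 7.66 FPKM, was the only control library above any melatonin value of Smad6, so leaving it out was bound to separate the groups. With it kept, the Smad6 groups overlapped and the unadjusted p was 0.217 (limma). The share of all genes that do not overlap once that library is left out was not computed.

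**Figure D2:**
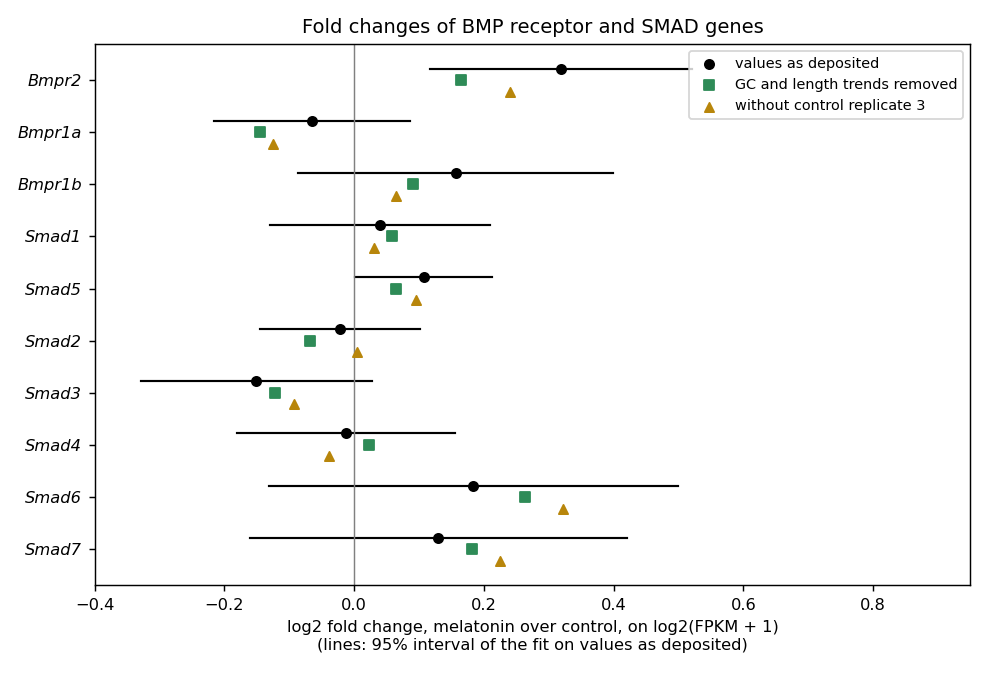
Log2 fold change, melatonin over control (x axis), of each gene (y axis) from values as deposited (circles, lines are 95% intervals), with GC and length trends removed (squares) and without control replicate 3 (triangles). Bmpr2 moves from 0.32 to 0.16 with the trends removed, and Smad6 from 0.18 to 0.32 without control replicate 3.

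Promoter sequences, from RefSeq (GRCm38.p6), are shown for Smad6 and Smad5 because they carry different SMAD-binding letters. The palindromic SMAD box is GTCTAGAC and the GC-rich element bound by BMP-activated SMADs is GGCGCC, with GCCGNCGC as a related form, and CAGAC is the shorter box bound by SMAD3 and SMAD4. Each sequence runs 5′ to 3′ on the gene's strand from 250 bases before the transcription start to 30 bases after it, with matches to any of these 4 motifs on either strand in capitals. The Smad6 window is chr9:64022030-64022309 (minus strand) and the Smad5 window chr13:56702760-56703039 (plus strand).
Smad6: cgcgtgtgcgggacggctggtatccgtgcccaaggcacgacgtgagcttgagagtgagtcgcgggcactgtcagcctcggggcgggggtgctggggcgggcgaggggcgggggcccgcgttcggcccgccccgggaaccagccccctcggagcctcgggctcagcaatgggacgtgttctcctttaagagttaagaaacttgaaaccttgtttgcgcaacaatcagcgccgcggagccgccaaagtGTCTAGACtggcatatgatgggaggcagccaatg
Smad5: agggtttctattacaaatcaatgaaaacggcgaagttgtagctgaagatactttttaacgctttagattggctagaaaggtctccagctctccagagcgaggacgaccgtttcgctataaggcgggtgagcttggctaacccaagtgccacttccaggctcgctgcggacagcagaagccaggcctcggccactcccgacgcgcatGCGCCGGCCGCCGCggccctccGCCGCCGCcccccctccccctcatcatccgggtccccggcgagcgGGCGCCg

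The Smad6 window held GTCTAGAC once, beginning 4 bases before the start, and 0.213% of the 32851 promoter windows in the table, which reach 50 bases past the start, held it. The Smad5 window shown held GGCGCC once, beginning at base 24 after the start, and GCCGNCGC or its reverse complement 3 times with overlaps. Smad5 has other starts with other matches. In the window chr13:56702802-56703101 GGCGCC began at base -19 from the start. The window chr13:56703418-56703717 held neither GGCGCC nor GCCGNCGC. GGCGCC was found in 11.9%, GCCGNCGC in 9.76% and CAGAC in 49.6% of all windows, counting both strands. Windows were searched for 7 of the 10 genes, with 11 starts in all. The genes on chromosome 18 (Smad2, Smad4 and Smad7) were left out of the search, so their windows were not examined for these motifs. GGCGCC also occurred once in the windows of Bmpr2 and Bmpr1a, and that of Bmpr1a held GCCGNCGC or its reverse complement 3 times with overlaps. CAGAC or its reverse complement occurred once each in the Bmpr1b windows chr3:141982215-141982514 and chr3:141931539-141931838 and in the Smad5 window chr13:56703418-56703717. None of the 4 motifs occurred in the Bmpr1b window chr3:141931371-141931670 or in the windows of Smad1 and Smad3. A match describes these letters only and is no evidence of binding in these follicles.

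By FPKM level over the 8 libraries the order was Bmpr2, Bmpr1b, Smad4, Bmpr1a, Smad3, Smad5, Smad2, Smad7, Smad6 and Smad1. Bmpr2 and Bmpr1b averaged 82.3 and 77.9 FPKM and their ranges overlapped, although Bmpr2 was the higher in 4 of 4 melatonin and 2 of 4 control libraries. Ranges also overlapped between Bmpr1a and Smad3, between Smad3 and Smad5 and between Smad2 and Smad7. Smad4, at a mean of 32.9 FPKM, stood apart from both its neighbours, and Smad7 exceeded Smad6 in 8 of 8 libraries. Smad6 and Smad1, at 6.004 and 3.97 FPKM, were the lowest and did not overlap each other. Within the melatonin group Smad5 ranked above Smad3 in 3 of 4 libraries, whereas in control Smad3 ranked above Smad5 in 3 of 4.

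Several of the 10 genes had their extreme values in the same libraries. Control replicate 3 gave the lowest control value of 6 genes (the 3 receptor genes, Smad1, Smad4 and Smad5) and the highest of the other 4. Melatonin replicate 4 gave the lowest melatonin value of 5 genes and the highest of 4. How often these libraries give the extreme value of their group over all genes was not computed. The sum of 7 leukocyte markers was 29.2 to 49.5 FPKM in melatonin libraries and 137 FPKM in control replicate 3, against 32.5 to 70.3 FPKM in the other control libraries. Theca markers summed to 63.6 FPKM in melatonin replicate 4, against 34.4 to 36.4 FPKM in the other melatonin libraries. The part of these markers in the SMAD and receptor values was not tested.

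**Figure D3:**
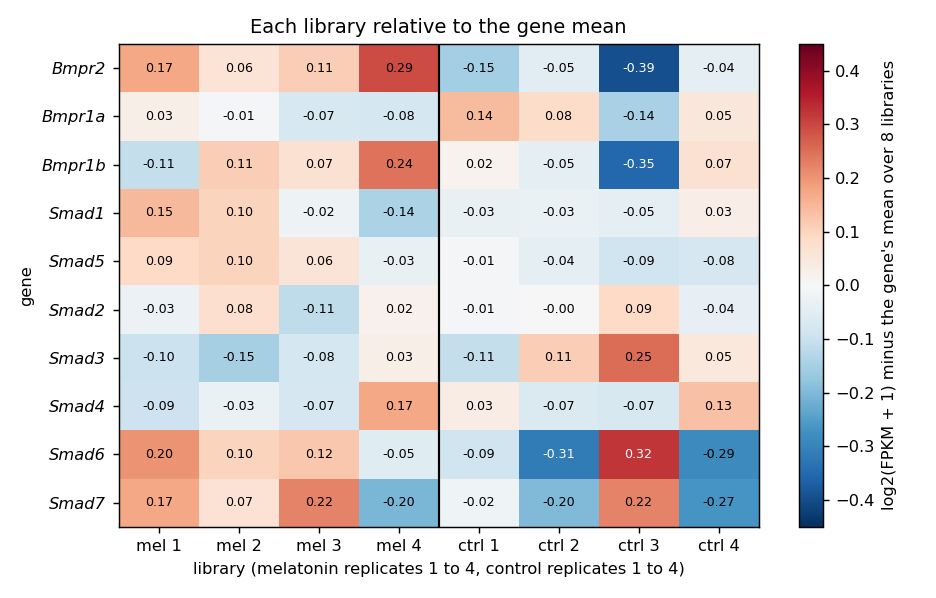
Log2(FPKM + 1) minus the gene's mean over the 8 libraries (colour and printed value) for each gene (rows) in each library (columns, melatonin left of the line, control right). Control replicate 3 ranges from -0.39 for Bmpr2 to 0.32 for Smad6, and melatonin replicate 4 from 0.29 for Bmpr2 to -0.20 for Smad7.

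The rest of the pathway was described from 89 listed genes, grouped by role, of which 64 passed the filter. None of the 64 passed the test (limma), and limma-voom called 0 of 60. An unadjusted p under 0.05 was found for 11 of 64 by limma, against 19.1% of all tested genes, and for 13 of 60 by limma-voom, against 19.9%. Log2 fold changes were positive in 42 of 64 with a median of 0.08, where 47.5% of all tested genes were positive. The count was 39 of 64 with GC and length trends removed (median 0.04) and 37 of 64 without control replicate 3 (median 0.05). Melatonin and control did not overlap in 4 of the 64, of which 3 were higher (5.79% of all tested genes) and 1 was lower (5.94%).

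Ligand transcripts gave 6 tested genes of 16, and 4 of the 6 had negative log2 fold changes, none past the test. Amh, whose protein signals through AMHR2 and BMP type I receptors, was the most abundant, at 357 ± 39.5 FPKM with melatonin and 434 ± 64.6 FPKM in control (SD, n = 4 each, adjusted p = 0.266). Bmp2 had the smallest p of the ligands, at 33.0 ± 7.08 FPKM with melatonin and 21.8 ± 8.63 FPKM in control (log2 fold change 0.64 ± 0.28 SE, adjusted p = 0.256), and its log2 fold change ranged from 0.38 without control replicate 3 to 0.85 without control replicate 4 (adjusted p = 0.127, limma). The oocyte ligands of BMPR2, chosen after their values were seen, had overlapping values. Bmp15 was at 34.5 ± 4.49 FPKM with melatonin and 38.2 ± 5.01 FPKM in control (adjusted p = 0.532), and Gdf9 was at 97.9 ± 14.3 FPKM with melatonin and 106.6 ± 19.1 FPKM in control (adjusted p = 0.690).

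Other type I receptors gave 3 tested genes of 5, and Acvr1, which serves BMPs and AMH, had the smallest p of the pathway list. It was at 4.13 ± 0.0966 FPKM with melatonin and 4.99 ± 0.161 FPKM in control, without overlap (log2 fold change -0.22 ± 0.050 SE, adjusted p = 0.122 by limma). Its value was -0.20 with GC and length trends removed and -0.23 without control replicate 3. Tgfbr1, the TGF-beta and GDF9 type I receptor, was at 35.7 ± 5.85 FPKM with melatonin and 32.8 ± 4.01 FPKM in control (adjusted p = 0.633). All 4 other type II receptor genes were tested. The most abundant was Amhr2 at 127 ± 11.7 FPKM with melatonin and 135 ± 16.2 FPKM in control (adjusted p = 0.666), and Acvr2a, an activin and BMP receptor, was at 6.45 ± 0.698 FPKM with melatonin and 5.55 ± 0.634 FPKM in control (adjusted p = 0.313). Bmpr2 thus exceeded Acvr2a in FPKM level in both groups and lay below Amhr2.

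Co-receptor and decoy genes gave 6 tested of 7, with 4 positive. Neo1, a receptor for repulsive guidance molecules, was at 36.2 ± 2.56 FPKM with melatonin and 39.0 ± 1.39 FPKM in control (adjusted p = 0.346). Eng, the endothelial co-receptor endoglin, was at 1.39 ± 0.526 FPKM with melatonin and 2.02 ± 0.452 FPKM in control (adjusted p = 0.315). Secreted antagonists gave 10 tested of 16, with 5 positive and 5 negative. Follistatin (Fst), an activin and BMP binder, led at 192 ± 12.8 FPKM with melatonin and 200.2 ± 22.5 FPKM in control (adjusted p = 0.751). Bmper, a secreted BMP modulator, did not overlap, at 8.70 ± 0.885 FPKM with melatonin and 6.30 ± 1.02 FPKM in control (log2 fold change 0.42 ± 0.11 SE, adjusted p = 0.146 by limma). Grem1, a BMP antagonist of cumulus and granulosa cells named after its values were seen, was at 71.8 ± 18.4 FPKM with melatonin and 98.5 ± 13.5 FPKM in control (adjusted p = 0.221).

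Smad9, SMAD anchors and nuclear partners gave 12 tested genes of 13, all 12 with positive log2 fold changes (median 0.11) and none past the test. The number was 10 of 12 both with GC and length trends removed (median 0.07) and without control replicate 3 (median 0.10). Zfyve16, an endosomal protein that binds SMAD1, did not overlap, at 8.95 ± 0.742 FPKM with melatonin and 7.13 ± 0.612 FPKM in control (log2 fold change 0.29 ± 0.075 SE, adjusted p = 0.144 by limma). Its log2 fold change was 0.20 ± 0.062 (SE) with GC and length trends removed (adjusted p = 0.192, limma). Tgif1, a SMAD corepressor, was at 43.0 ± 0.862 FPKM with melatonin and 41.5 ± 3.62 FPKM in control (adjusted p = 0.680). Smad9, the other BMP receptor SMAD, was named after its values were seen. It was at 2.37 ± 0.213 FPKM with melatonin and 1.88 ± 0.310 FPKM in control (log2 fold change 0.23 ± 0.098 SE, adjusted p = 0.257 by limma), so its level lay below that of Smad1.

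Genes of SMAD turnover and dephosphorylation were all tested, and 10 of 14 were positive (9 of 14 with GC and length trends removed). Usp9x, a deubiquitinase of SMAD4, was at 16.7 ± 0.617 FPKM with melatonin and 14.7 ± 0.964 FPKM in control (log2 fold change 0.17 ± 0.055 SE, adjusted p = 0.169 by limma), and its log2 fold change was 0.03 with those trends removed. Ctdsp2, a SMAD phosphatase, was at 35.8 ± 1.15 FPKM with melatonin and 31.7 ± 3.93 FPKM in control (adjusted p = 0.275).

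SMAD-responsive genes gave 9 tested of 14, with 5 positive and 4 negative. Id3, an inhibitor of DNA binding induced by BMPs, was at 67.8 ± 7.93 FPKM with melatonin and 79.1 ± 15.8 FPKM in control (adjusted p = 0.454). Ldlrad4, a TGF-beta-induced inhibitor of SMAD2 and SMAD3 activation, was at 10.5 ± 1.08 FPKM with melatonin and 8.44 ± 1.03 FPKM in control (log2 fold change 0.28 ± 0.099 SE, adjusted p = 0.190 by limma). Id1, named after its values were seen, was at 9.79 ± 2.54 FPKM with melatonin and 12.7 ± 1.80 FPKM in control (adjusted p = 0.262), and its log2 fold change was -0.51 without melatonin replicate 3 (adjusted p = 0.117, limma) in place of -0.36. Atoh8, another BMP-induced gene named in the same way, was at 8.67 ± 2.20 FPKM with melatonin and 6.26 ± 0.873 FPKM in control (adjusted p = 0.240). The Id genes that passed the filter (Id1, Id3 and Id2, the last also named after its values were seen) all had negative estimates. Those of Atoh8, Smad6 and Smad7 were positive, and none of these genes passed the test.

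**Figure D4:**
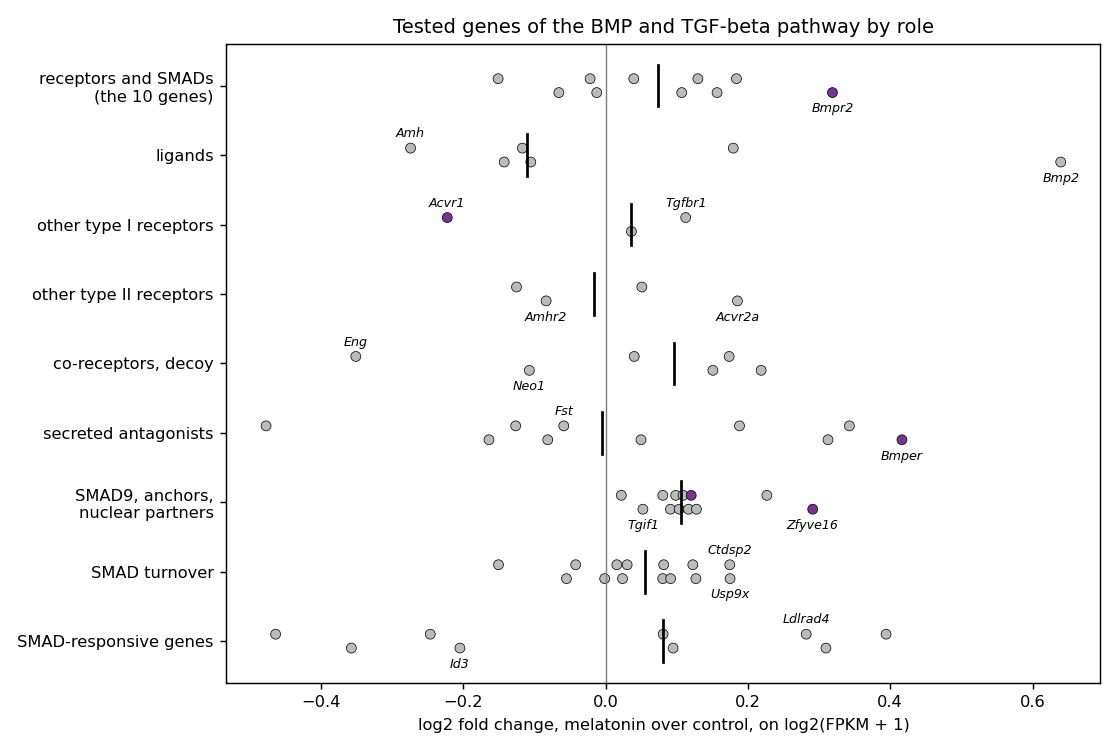
Log2 fold change, melatonin over control (x axis), of each tested gene (points) by role (rows), with the 10 receptor and SMAD genes on top; lines are row medians and purple points are genes whose groups do not overlap. The 4 purple points below the top row are Acvr1 at -0.22, Bmper at 0.42, Zfyve16 at 0.29 and Ep300, a coactivator named here after its values were seen, at 0.12. With GC and length trends removed (not plotted) they were at -0.20, 0.44, 0.20 and 0.09, in the same order.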

How the data were processed

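The submitters' processing notes name HISAT2 2.0.5 and the mm10 build. The sources used here name no counting tool, annotation or strand setting. Per the file headers, the deposited values were FPKM per gene, and the table of the whole series matched the 8 sample files in every cell. An FPKM value depends on what all other genes of its library take up. Exon lengths and coordinates came from GENCODE M21 (mm10), which matched 54495 of 55157 identifiers. With them 98.8% of values of up to 30 fragments were whole within 0.05 fragments, which gave the depths. Smad2 did not give whole fragments and is absent from the limma-voom fit.

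Because the values are FPKM, limma 3.58.1 in R 4.3.3 (intensity trend) was run on log2(FPKM + 1) over the 14738 genes whose mean reached 1 FPKM, with group as the single term and Benjamini-Hochberg adjustment over all of them, and was tested on simulated data. Fold changes on this scale understate those of low genes. Single genes also had a two-sided exact permutation test. The genes, lists, tests and alternatives were chosen with earlier results of these data known. The text names the 10 genes and, per pathway list, the gene with the highest mean and the one with the smallest p, and others only as stated. Alternatives were quantile normalization, median-ratio scaling, no filter, a filter of 5 FPKM, a pseudocount of 0.1, array weights, the replicate number as a block, removal of GC and length trends (splines of 5 degrees of freedom, fitted per library), limma-voom on recovered fragments, each library left out, and a threshold of 0.1. Python 3.11.15, pandas 2.3.3 and matplotlib 3.10.9 made tables and plots.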

Additional observations from a re-analysis of the deposited data

Results flagged for a closer look

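Among the 33 genes described with values, 66 groups of 4 libraries were examined for a library far from the rest, which chance gives in about 1 of 20 groups. It was found in 6 groups, none of them in the 10 receptor and SMAD genes. Bmp2 was at 43.5 FPKM in melatonin replicate 4, against 28.5 to 30.8 FPKM in the other melatonin libraries, and its log2 fold change was 0.50 without that library in place of 0.64. Tgfbr1 was at 44.5 FPKM in the same library, against 32.3 to 33.2 FPKM in the others, with a log2 fold change of 0.01 without it in place of 0.11. Ctdsp2 was at 37.6 FPKM in control replicate 4, against 29.2 to 30.2 FPKM, with a log2 fold change of 0.26 without it (adjusted p = 0.0972, limma) in place of 0.17. Usp9x was at 16.1 FPKM in control replicate 1, against 14.1 to 14.3 FPKM, with a log2 fold change of 0.22 without it in place of 0.17. Smad9 was at 2.05 FPKM in melatonin replicate 4, against 2.46 to 2.49 FPKM in the other melatonin libraries, with a log2 fold change of 0.27 without it in place of 0.23. Id1 was at 13.6 FPKM in melatonin replicate 3, against 8.09 to 8.83 FPKM in the others, with a log2 fold change of -0.51 without it in place of -0.36.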

How the results depend on the processing

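No receptor or SMAD gene passed the limma threshold in any of the 17 alternative fits, and none had an adjusted p under 0.1 in them. Over all genes 1 was called with no filter (Mir6947) and 0 to 1 with a library left out (C1rb, without control replicate 1), where the cause was not tested; both were named after their values were seen. Of 168 alternative estimates for the 10 genes, 159 kept their sign. Those that turned were Smad4 (0.043 after quantile normalization and 0.023 after GC and length correction; -0.072 to 0.029 with a library left out), Smad2 (0.00015 after quantile normalization; -0.050 to 0.012 with a library left out) and Smad1 (-0.0023 to 0.094 with a library left out). Bmpr2 ranged from 0.16 to 0.41, with an adjusted p from 0.116 to 0.331. Correlations over genes ran from -0.103 to 0.151 for same-numbered libraries of the groups and from -0.091 to 0.096 for differently numbered ones. Such values cannot show whether the numbers pair the libraries, which the labels do not say. With the replicate block 0 genes were called and Bmpr2 had an adjusted p of 0.157 (limma).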
